A study of Mus musculus with 6 samples.

Results

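The regions described here are the Ring1b peaks found in hair follicle stem cells (HFSC) and not in intestinal stem cells (ISC), called skin-only peaks below. They were chosen by 2 deposited peak lists: an HFSC peak is a member when no ISC peak overlaps it or lies within 1000 bp. Peaks were set aside when their midpoint fell in a 100-kb bin holding 5 or more peaks of each list, or in one of the 4 Hox clusters. Of 6754 HFSC peaks, 4342 are skin-only, which is 64.3% (Wilson 95% interval 63.1 to 65.4). Another 1852 HFSC peaks have an ISC peak within 1000 bp and are called shared, and 560 were set aside, 109 of them with no ISC peak that near.

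Ring1b (gene Rnf2) is a catalytic subunit of Polycomb repressive complex 1, which attaches ubiquitin to histone H2A and compacts chromatin. The complex is best known for holding developmental regulators silent, often at CpG-rich promoters and over broad domains. Ring1b can also be brought to chromatin by variant complexes that differ in their Pcgf subunit, and some of these sit at active genes. Lgr5, a receptor for R-spondins that strengthen Wnt signals, marks cycling stem cells in both the follicle and the intestinal crypt.

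Each tissue is represented by 1 ChIP-seq sample, from wild-type C57BL/6 mice per the labels. In the protocols these animals are described as LGR5-Ring1a/b ++, the Lgr5-GFP cells were sorted as live single cells, and each immunoprecipitation took 2.5 M cells and 10 µg of a Ring1b antibody raised in the authors' laboratory. The follicles had been synchronised in the growth phase (anagen), and no such step is described for the intestine. The sources used here do not give age, sex, how many animals were pooled or the input control. The series also holds 4 HFSC RNA-seq samples of 3000 cells each, 2 of them Ring1a/b-/- and 2 wild type. With 1 peak list per tissue there is no replicate, so every comparison below is a description. Intervals cover counting error only, and a difference between tissues, sorts or libraries cannot be told apart. The peaks carry mm9 positions and no gene names, since no mm9 annotation entered the work.

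The skin label was checked in the 2 wild-type HFSC RNA samples (2785843 and 3056593 counts), which are other libraries than the ChIP. All 12 genes listed for follicle stem cells were in the counts. Of these, 11 reached 1 CPM (counts scaled to a common library total) in both, with summed levels of 1802 and 1994 CPM. The list includes Krt5, Krt14, Itga6 and Itgb4, which are not particular to follicle stem cells. Of that sum, Krt5 made up 407 and 357 CPM and Krt14 276 and 284 CPM. Lgr5 itself stood at 132.1 and 189.8 CPM and Krt15, a keratin of the bulge, at 394 and 355 CPM. Nfatc1, a factor of bulge quiescence, was at 0 and 2.29 CPM. Of 8 intestinal epithelial markers, 3 were at 0 in both libraries (Cdx1 and Cdx2, which specify intestine, and Vil1, of the brush border). The 8 summed to 15.1 and 31.1 CPM, most of it Lgals4, at 10.4 and 19 CPM. Fibroblast markers summed to 590 and 677 CPM, most of it Dcn, a matrix proteoglycan, at 561 and 422 CPM. The collagen genes Col1a1 (13.6 and 110.9 CPM) and Col1a2 (10.8 and 136.4 CPM) differed far more between the libraries. Melanocyte markers summed to 43.4 and 71.3 CPM and endothelial markers to 1.08 and 33 CPM. Leukocyte markers summed to 75 and 64.5 CPM, with Lyz2 at 46.7 and 39.9 CPM and Cd207, of Langerhans cells, at 0 in both. The part of these other cells in the skin-only peaks was not tested. RNA of intestinal stem cells was not analysed here.

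The typical skin-only peak was short and weak. Width ran from 200 to 1755 bp with a median of 276 bp, and 200 bp was also the narrowest peak in either list. The fold over background given by the authors ran from 1.98 to 18.5, with a median of 6.25 (95% interval of the median 6.19 to 6.3) and an interquartile range of 5.53 to 7.29. The −log10 q had a median of 6.46 and an interquartile range of 5.1 to 8.72. The summit lay near the middle of the peak, at a median of 48.8% of its width, against 49.2% in shared peaks.

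Fold and p together gave the depth behind each peak. Under the formulas that MACS2 is known to use, in which the fold is (pileup + 1)/(background + 1) and p is a Poisson upper tail, the 2 deposited values of a peak can be solved for a whole number of fragments at the summit (the pileup) and for the local background. A whole-number pileup gave the deposited −log10 p within 0.001 for 6754 of 6754 HFSC and 4444 of 4444 ISC peaks. By this reading a skin-only peak held a median of 13 fragments at its summit (interquartile range 12 to 16, range 7 to 179) over a background of 1.19 (interquartile range 1.04 to 1.48). Of the skin-only peaks, 521 (12%, 11.1 to 13) held 10 fragments or fewer and 329 (7.58%, 6.83 to 8.4) held 20 or more.

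The intestinal list had a similar floor in fragments, over a higher lowest background. Its lowest background was 1.23 fragments against 0.803 in the skin list, and at these levels 8 and 7 fragments are the fewest that reach a −log10 p of 5, which the lowest values deposited (5.04 and 5.07) lie just above. At the 1852 shared peaks the HFSC pileup had a median of 15 fragments and the nearest ISC peak a median of 13 (interquartile range 12 to 15). Of these ISC partners, 143 (7.72%, 6.59 to 9.03) held 10 fragments or fewer. A skin-only peak is thus a site where the intestinal library gave no peak. The lowest ISC background was found at 36.1% of ISC peaks, and the lowest HFSC background at 5.61% of HFSC peaks. At the lowest ISC background a peak needs 8 fragments, and a higher background needs more. Ring1b below the level needed at a site was not detectable there at this depth.

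The skin-only share fell with peak strength. Among HFSC peaks of 7 to 9 fragments 80.8% (74.8 to 85.7) were skin-only, at 12 to 13 fragments 69.6% (67.4 to 71.7), at 16 to 19 fragments 57.4% (54.8 to 60), and among the 117 peaks of 30 or more 38.5% (30.1 to 47.5). Those 117 were 45 skin-only, 38 shared and 34 set aside, so skin-only peaks still outnumbered shared ones. The 198 peaks of 7 to 9 fragments were 160 skin-only, 32 shared and 6 set aside. Ranked by −log10 q, the lowest 10% of HFSC peaks were 71.6% skin-only (68.1 to 74.9) and the highest 10% were 47% (43.3 to 50.8). Part of the last value in each ranking is the rule itself, since strong peaks were more often set aside with dense bins. Counting skin-only and shared peaks alone, the 2 ends by −log10 q stood at 75.5% and 59.6%. Because the choice of members used presence in both lists, these shares describe the 2 lists and test nothing.

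**Figure D1:**
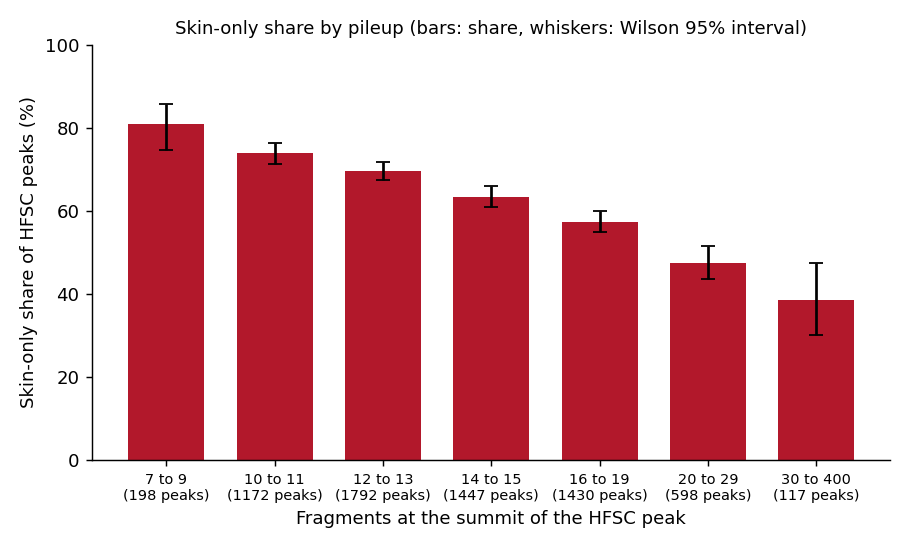
Share of HFSC peaks that are skin-only (vertical axis, percent) by the number of fragments at the peak's summit (horizontal axis), with the number of HFSC peaks under each bar. Bars give the share and whiskers the Wilson 95% interval, and the share steps down from 80.8% at 7 to 9 fragments to 38.5% at 30 or more. Peaks set aside count in each total: 6 of 198 at 7 to 9 fragments and 34 of 117 at 30 or more.

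Shared peaks of the same list were wider, at a similar fold but with more fragments. Their median pileup was 15 fragments against 13 in skin-only peaks, over a median background of 1.41 against 1.19. Median −log10 q was 7.02 against 6.46, so the widths are not compared at equal strength. Their median width was 316 bp (308 to 327) against 276 bp (271 to 279), and their median fold 6.4 (6.3 to 6.44) against 6.25. Peaks of 500 bp or more made up 19.7% (18 to 21.6) of shared and 9.26% (8.43 to 10.2) of skin-only peaks. At 1000 bp or more the counts were 51 shared (2.75%) and 36 skin-only (0.829%). The strongest shared peak reached a fold of 34.6, where the strongest skin-only peak reached 18.5.

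The 10 skin-only peaks of highest fold lay on 7 chromosomes. First came chr15:37127771-37128417 (mm9, here and below), 647 bp wide, with a fold of 18.5 from 38 fragments over a background of 1.11 and the nearest ISC peak 259 kb away. It had company: within 100 kb lay 4 more skin-only peaks, among them chr15:37162654-37163492, with 39 fragments and a fold of 14, and chr15:37163655-37164252, with 19 fragments and a fold of 9.81. Weaker peaks there, chr15:37089199-37089453 and chr15:37129184-37129543, had folds of 6.3 and 7.7. The shortest distance from any of these peaks to an ISC peak was 221 kb, from chr15:37089199-37089453.

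The second by fold, chr9:123370920-123371308, had a fold of 16.7 from 33 fragments and lay 462 kb from an ISC peak. The third, chr1:13115502-13116655, was also broad, 1154 bp, with 40 fragments and a fold of 16.5. The fourth, chr1:91000904-91001292, had 37 fragments and a fold of 16.3 and was the nearest of the 10 to an ISC peak, at 33.9 kb. The others followed closely in fold. chr3:94483394-94483710 reached 16.1, chr3:55586640-55587866 (1227 bp wide) 16 and chr11:105927940-105928321 15.8. chr5:137190029-137190857 reached 15.5, chr5:42235442-42235765 15 and chr18:85867237-85867829 14.4. Their pileups ran from 25 to 40 fragments on backgrounds of 0.803 to 1.48, all at or below the upper quartile of the skin-only peaks. The last of the 10 was the most isolated of them, with its nearest HFSC neighbour 2784 kb away.

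Ranking by −log10 q picked a different kind of site. The next 5 by −log10 q, chr17:36368046-36368690 (108), chr5:147072435-147073044 (94.1), chr16:57391458-57391935 (55.5), chr3:5860485-5860930 (49.8) and chr6:3151317-3151704 (45.9), held 95 to 179 fragments. Their backgrounds were 9.28 to 41.9 fragments and their folds 4.19 to 13.3. All 5 stood on a local background far above the skin-only median of 1.19. In all, 31 skin-only peaks (0.714%, 0.503 to 1.01) had a background of 5 times the lowest of the list or more, with pileups of 23 to 179 and a median fold of 4.68. They supplied 11 of the top 20 skin-only peaks by −log10 q. The same held for 14 shared peaks (0.756%, 0.451 to 1.26). What raises the coverage at these positions was not tested. Of all skin-only peaks, 26 started before 3.3 Mb, near where mm9 sequence begins on a mouse chromosome, on 9 chromosomes, and 7 of them were among the 31.

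**Figure D2:**
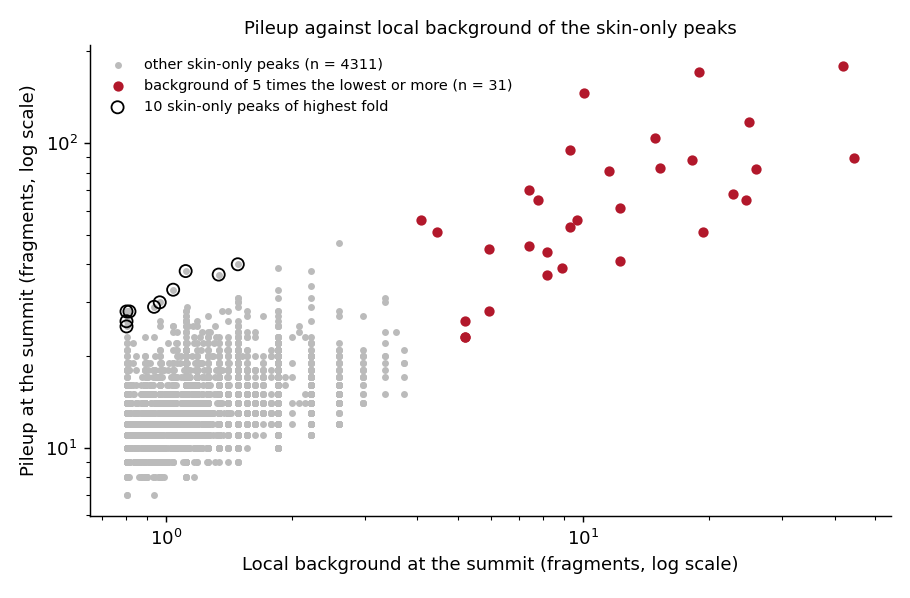
Fragments at the summit (vertical axis, log scale) against local background in fragments (horizontal axis, log scale) for each of the 4342 skin-only peaks, both solved from the deposited fold and p. Red points are the 31 peaks with a background of 5 times the lowest or more, which continue the cloud to the upper right, and open circles are the 10 peaks of highest fold, at the top of the cloud for their background.

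Of the 5 widest skin-only peaks, 4 had a fold above the upper quartile of 7.29. chr15:76010130-76011884 spanned 1755 bp with a fold of 10.5, chr13:55928682-55930348 spanned 1667 bp with 12, and chr17:86091068-86092606 spanned 1539 bp with 12.5. chr6:6830544-6832175 spanned 1632 bp with a fold of 8.45. The other of the 5, chr15:35229966-35231564, spanned 1599 bp with a fold of 5.29 and lay only 1049 bp from an ISC peak, just inside the rule. Each of the 5 had another HFSC peak within 2.36 kb, so none stood alone.

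Most skin-only peaks lay more than 10 kb from any intestinal peak. The rule sets the lower limit of 1000 bp, and no distance expected from placement alone was computed. The median distance between edges was 131 kb (122 to 142) with an interquartile range of 41.4 to 404 kb. Within 10 kb of an ISC peak lay 449 (10.3%, 9.47 to 11.3), within 100 kb 1909 (44%, 42.5 to 45.4), and over 1000 kb away 434 (10%, 9.14 to 10.9). In the other direction, the 2054 ISC peaks with no HFSC peak within 1000 bp and not set aside (46.2% of 4444, 44.8 to 47.7) had a median distance of 50.7 kb to the nearest HFSC peak, over the 2049 that are not mitochondrial. The HFSC list is the longer one, which shortens distances measured to it, so the 2 medians are not on 1 scale.

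**Figure D3:**
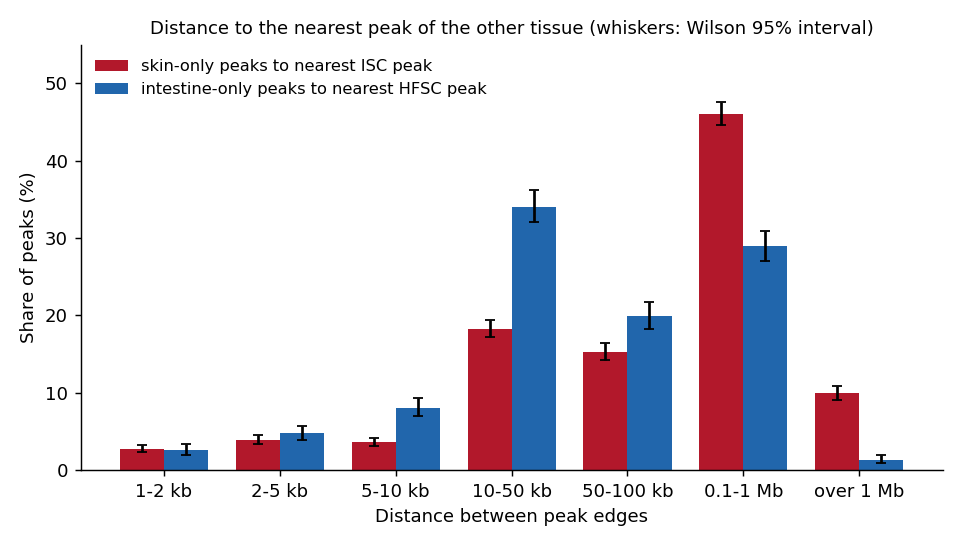
Share of peaks (vertical axis, percent) by distance to the nearest peak of the other tissue (horizontal axis), for 4342 skin-only peaks (red) and 2054 intestine-only peaks (blue, of which the 5 mitochondrial ones have no distance and are in no bar), with Wilson 95% whiskers. The red bars are highest between 0.1 and 1 Mb (46%), the blue ones between 10 and 50 kb (34.1%).

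The 3 members nearest to it lay 1002, 1009 and 1009 bp from an ISC peak, with folds of 8.99, 5.54 and 7.1 from 18, 14 and 14 fragments. The 3 shared peaks nearest to it lay 987, 990 and 991 bp away, with folds of 5.23, 5.54 and 5.39 from 12, 9 and 12 fragments. All 3 members had more fragments than all 3 shared peaks. Over all peaks the order was the other way, with medians of 13 fragments in members and 15 in shared peaks. Of the members, 67 (1.54%, 1.22 to 1.95) lay within 1 kb of an HFSC peak that has an ISC peak within 1000 bp, and 293 (6.75%, 6.04 to 7.53) within 10 kb. The rule itself keeps these shares low, since it takes out peaks near an ISC peak.

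Skin-only peaks often lay together. Another skin-only peak lay within 1 kb of 987 members (22.7%, 21.5 to 24), within 10 kb of 1467 (33.8%, 32.4 to 35.2) and within 100 kb of 2684 (61.8%, 60.4 to 63.2). Joined at 1000 bp, the 4342 peaks made 3766 loci, of which 411 held 2 or more peaks and the largest held 6. At the other end, 1324 members (30.5%, 29.1 to 31.9) had no other HFSC peak of any kind within 100 kb. Shared peaks had any HFSC neighbour within 10 kb in 42.2% of cases (39.9 to 44.4) and skin-only peaks in 36% (34.5 to 37.4).

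Chained at 100 kb, the members fell into 2533 runs. Of these, 1658 held 1 peak, 483 held 2, 269 held 3 to 4, 112 held 5 to 9 and 11 held 10 or more. Runs of 5 or more took in 824 members (19%, 17.8 to 20.2), and among intestine-only peaks they took in 276 of 2054 (13.4%, 12 to 15), with a longest run of 26. The lists differ in density, which sets how often peaks chain.

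The longest run, chr15:75760163-76157964, held 22 skin-only peaks over 398 kb, with folds of 4.55 to 10.5 and 9 to 25 fragments. It also held 2 HFSC peaks with an ISC match within 1000 bp (matched peaks) and 2 ISC peaks. The second, chr11:94974546-95120688, held 16 over 146 kb with folds of 5.41 to 12.8, beside 1 matched peak and 1 ISC peak. In both, skin peaks spread along a stretch where the intestinal list had 1 or 2. The rule favours such runs, since it takes out HFSC peaks near an ISC peak and bins dense in both lists. Counting ISC peaks in the run or within 100 kb of it, there were 8 and 4.

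The third run, chr19:45225052-45318753, had 15 members over 93.7 kb with folds up to 12.1, and they stood in 2 clumps. The first 6 had no ISC peak among them and the other 9 mingled with 6 matched HFSC and 4 ISC peaks. The fourth, chr4:148000311-148329591, had 13 members over 329 kb with folds up to 11.8, 0 matched peaks, and 2 ISC peaks without an HFSC peak within 1000 bp. The fifth, chr14:63859508-63888311, was the most compact, with 12 members in 28.8 kb, folds of 4.79 to 12.7 and 9 to 25 fragments, around 3 matched HFSC peaks and 1 ISC peak. Each of these 5 runs held at least 1 ISC peak.

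**Figure D4:**
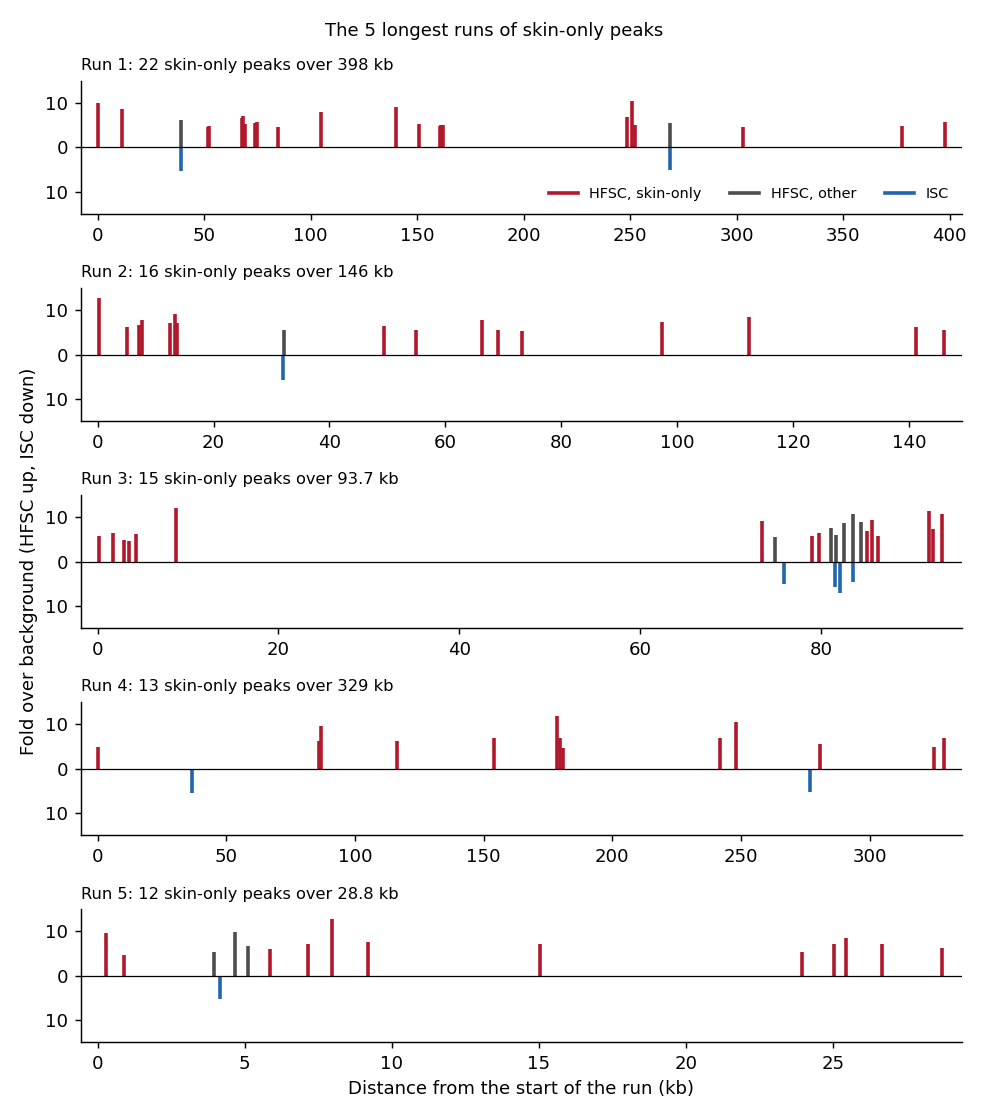
Fold over background (vertical axis, HFSC peaks upward and ISC peaks downward) against distance from the start of the run in kb (horizontal axis) for the 5 longest runs of skin-only peaks. Red lines are skin-only peaks, grey lines other HFSC peaks and blue lines ISC peaks, and each run holds between 1 and 4 ISC peaks.

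Compact skin-only domains with no intestinal peak existed as well. HFSC peaks of any class were joined at 10 kb, a grouping chosen after the peak positions were seen. Of the 3415 groups that held a skin-only peak, 3123 held nothing else and had no ISC peak in them or within 10 kb, and these took in 3858 members (88.9%, 87.9 to 89.8). Most were not domains: 2670 of the 3123 were single peaks, and 43 held 5 or more peaks, with 254 members. The share of groups without an ISC peak was 96% (95.2 to 96.7) among single peaks, 75% (71.2 to 78.4) among groups of 2 to 4, and 49.4% (39.2 to 59.7) among the 87 groups of 5 or more. This fall is partly built in: a larger group spans more genome, and it can hold a shared peak, which has an ISC peak by definition, while a single skin-only peak cannot.

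Groups without an ISC peak were ranked by their number of peaks, with ties ordered by summed fold. The largest of the 43 groups of 5 or more was chr14:22802014-22814895. It held 9 skin-only peaks in 12.9 kb, with folds of 5.3 to 8.21, 10 to 20 fragments and the nearest ISC peak 151 kb away. The second, chr11:23975977-23981775, packed 8 peaks into 5.8 kb with folds of 5.63 to 8.52, 410 kb from an ISC peak. The third, chr1:42743513-42754985, held 8 peaks in 11.5 kb with folds of 4.43 to 7.21, 3319 kb from an ISC peak. In these 3 domains many weak peaks of like height stood side by side, and none reached the fold of the 10 strongest single peaks.

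Of 5 groups tied at 7 peaks, the first by summed fold was chr9:99768945-99776801, with 7 peaks in 7.86 kb, folds of 6.15 to 10.4 and 625 kb to the nearest ISC peak. The next by summed fold, chr11:94974546-94988407, with 7 peaks in 13.9 kb and folds of 6.3 to 12.8, is the start of the second long run above. The highest background in these 5 groups was 1.86 fragments, so none belonged to the 31 peaks on raised coverage.

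By chromosome, the skin-only share of HFSC peaks stood apart on the X. There 56 of 64 HFSC peaks were skin-only (87.5%, 77.2 to 93.5), against 4286 of 6690 on the autosomes (64.1%, 62.9 to 65.2). The X held 0.948% of HFSC peaks (0.743 to 1.21) and 18 ISC peaks, 0.405% of that list (0.256 to 0.639). X members were weaker in depth, with a median of 11 fragments (interquartile range 10 to 13) over a background of 0.803, where autosomal members had 13 (12 to 16) over 1.19. Their fold was close, with medians of 6.08 and 6.25. The part of the animals' sex in these values was not tested.

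The 5 members farthest from an ISC peak were all on the X, 14.6 to 17.1 Mb away. The farthest, chrX:53851064-53851325, had 14 fragments and a fold of 7.1, and chrX:50410152-50410601 had 11 and 4.2. chrX:133276099-133276653 had 11 fragments and a fold of 6.65, with the pair chrX:133652744-133652947 (11 and 6.11) and chrX:133653143-133653391 (9 and 4.73) close by. Of these 5, 4 had fewer fragments than the lower quartile of 12 among all skin-only peaks.

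Autosomes differed less. Their skin-only shares ran from 54.9% (50.9 to 58.9) on chromosome 11, with 323 of 588, to 72.9% (68 to 77.2) on chromosome 9, with 258 of 354. Chromosome 6 was second lowest at 55.8% (50.8 to 60.7), and both it and chromosome 11 carry a Hox cluster that was set aside. So do chromosomes 2 and 15, which stood at 63.6% and 62.6%. Over skin-only and shared peaks alone chromosome 6 stood at 72.5% and chromosome 11 at 62.8%, the lowest of all by that count. Chromosome 11 was also the richest in ISC peaks, with 463 (10.4% of that list) against 7.44% of the skin-only peaks. The ISC count includes peaks in dense bins and Hox clusters, which the skin-only count leaves out, so the 2 shares are not of like sets.

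**Figure D5:**
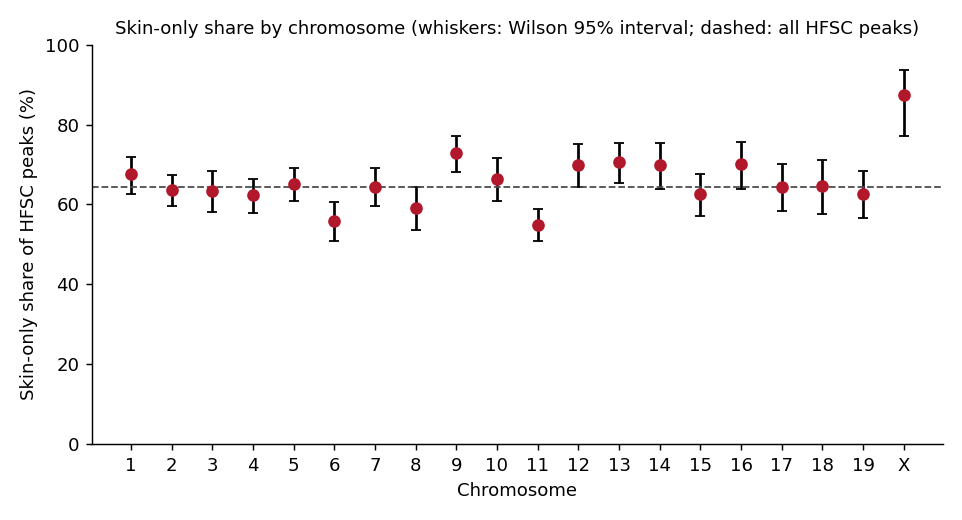
Share of HFSC peaks that are skin-only (vertical axis, percent) for each chromosome (horizontal axis), with Wilson 95% whiskers and a dashed line at the 64.3% of the whole list. Chromosome X lies above all autosomes at 87.5%, and chromosomes 6 and 11 lie lowest at 55.8% and 54.9%.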

How the data were processed

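The submitters' processing notes name build mm9 and, among their tools, MACS2 2.1.1, Bowtie 1.2.2, HTSeq 0.7.2, Picard 1.62 and TopHat2 2.1.1. Their roles, their settings and any pooling are not given in the sources used. The deposited peak lists hold, per peak, a score (10 times the −log10 p, read from the values), a fold ratio, the −log10 of p and q, and the summit offset. The deposited RNA table holds raw counts, used here for wild-type markers alone, as CPM on total counts. The knockout libraries and both other deposited tables were not used, because peaks were not joined to genes.

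In Python 3.11.15 (scipy 1.17.1) peaks were classified by the distance between edges. Pileup and background were solved from fold and p, and the code was tested on simulated data. Positions are 1-based. Shares carry Wilson 95% intervals and medians binomial ones. The members, lists and alternatives were chosen with earlier results of these data known. Regions named were the 10 members of highest fold, the next 5 by −log10 q, the 5 widest, the 5 farthest from an ISC peak, the 5 longest runs, and 3 on each side of the distance limit. The 5 largest 10-kb groups without an ISC peak (ties by summed fold) and the peaks around the top peak were added after their values were seen. The gap, the dense bins, the summit and the q threshold were varied. The planned test of genes at these peaks was not run.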

Additional observations from a re-analysis of the deposited data

How the results depend on the processing

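Of 70 values, 7 results under 10 alternatives, 36 stayed within the interval of the reported value (within 1.5 times for the number of peaks) and 34 moved. Nothing moved with the summit in place of the peak's edges, with bins shifted by 50 kb, or without peaks on a raised background, an alternative added after the data were seen. With overlap alone counted as shared, 71.2% of HFSC peaks were skin-only, at a median of 102 kb from an ISC peak, 64.4% with another within 100 kb and 9.79% with a shared peak within 10 kb. With a gap of 5000 bp these 4 values were 59.96%, 153 kb, 59% and 2.12%. With nothing set aside, 65.9% were skin-only and 8.36% had a shared peak within 10 kb. At a −log10 q of 5 in both lists, 72.8% were skin-only, with a median fold of 6.65, width of 293 bp and distance of 228 kb, 59.6% with another within 100 kb and 5.3% with a shared peak within 10 kb. At 5 in the HFSC list alone, 62.6% were skin-only, with a fold of 6.65, 289 bp and 55.6% with another within 100 kb. At 10 there, 733 peaks (53.2%) were skin-only, with a fold of 8.81, 373 bp, 113 kb, 27% with another within 100 kb and 5.46% with a shared peak within 10 kb. With 20 or more fragments, also added later, 331 (46.3%) were skin-only, with a fold of 9.28, 406 bp, 115 kb, 19.3% and 5.14%. Fewer peaks enter under the stricter thresholds, so fewer have a neighbour.

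Depth limits these data, since a peak rests on a median of 13 fragments and each tissue on 1 list. No paired analysis was possible because the results come from 1 peak list per tissue and from no test. The RNA test of genes at these peaks was not run, since peaks were not joined to genes. Other settings of that test (DESeq2, no low-count filter, leaving out each replicate, the replicate block and a 1000-bp window) were not run.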
